A study of Mus musculus with 7 samples.

Results

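The genes described here are 38 genes of the Fanconi anaemia pathway, of homologous recombination and of the DNA damage checkpoint. They were chosen by name from the deposited expression table, and all 38 are among its 16760 genes. RNA of mouse cells sorted as CD150-negative and labelled as haematopoietic stem cells (HSC) was sequenced in 4 libraries of genotype WT and 3 of genotype 5G2del. The 5G2del mice lack a segment of band 5G2 on chromosome 5, which is syntenic to human band 7q22. All 7 are of strain C57/B6, and no treatment is named. CD150 is a surface protein used to sort blood stem cells, encoded by Slamf1. The labels name no age, zygosity or ends of the deletion, and do not say whether libraries came from separate animals. The p-values below therefore measure only how these libraries vary, which may be technical. The table ties a library to its genotype but not to a sample number, so the 5G2del libraries are lettered A to C and those of WT A to D (5G2del-A, WT-A), and equal letters mark no pair.

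These proteins repair or signal breaks and crosslinks in DNA. When a replication fork meets a crosslink between the DNA strands, the Fanconi core complex loads the E2 enzyme UBE2T and attaches ubiquitin to the FANCD2-FANCI pair, which brings in nucleases that release the crosslink. The resulting break is repaired by homologous recombination: the ends are resected, and BRCA1, PALB2 and BRCA2, together with the strand exchange factors, lead the resected end to the sister chromatid. ATM with CHK2 and ATR with CHK1 signal the damage and delay the cell cycle. Inherited loss of Fanconi genes causes bone marrow failure and a tendency to myeloid leukaemia, and blood stem cells are among the cells that depend most on the pathway. Recombination uses the sister chromatid, and many of these genes are transcribed more in S and G2 phase.

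Each library held between 37930174 and 52194274 expected counts in the table's genes, and the 38 genes took between 0.0611% and 0.102% of them. The lowest single value was 22.7 expected counts, for Eme1 in WT-B, so no library was at or under a floor of 3 counts for any of the 38. Levels are given as log2 CPM, the log2 of counts scaled by a size that differs between libraries. Over all genes the scaled counts summed to 914591 for WT-B and 1.20599e+06 for WT-C, so their total was not fixed. Cux1, a gene of the deleted band, was at 6.80 to 8.01 log2 CPM in the 5G2del libraries and at 8.17 to 8.59 in WT. The progenitor markers Kit (7.98 to 8.23 log2 CPM over the 7 libraries), Cd34 (7.88 to 8.48) and Hlf (8.91 to 9.47) were high in every library. Slamf1, which encodes the protein used for the sort, was low in all but did not overlap between the genotypes, at 0.40 to 0.65 log2 CPM in 5G2del and -2.22 to -0.26 in WT. Of the same marker list, Cd48 had a higher mean in 5G2del (log2 fold change 0.99 ± 0.42, SE) and Ptprc, the pan-leukocyte CD45, a lower one (-0.41 ± 0.17), both with overlap. The 11 measured erythroid markers all had lower means, with a list mean of -1.83 to 2.13 log2 CPM in 5G2del and -0.18 to 2.67 in WT. For 0 of these 11 was the unadjusted limma p under 0.05, where 3.91% of all genes were. Megakaryocyte and platelet markers were higher for 5 of 7, with 2 under that p. B lineage markers were higher for 5 of 6, with 1 under it. T and NK markers were higher for 2 of 5, with 1 under it in each direction. The part of these differences in the 38 genes was not tested. Some differences between libraries touch the results below. WT-B had 1104 genes at 0 counts against 83 to 492 elsewhere. Mature neutrophil and monocyte markers, of which 10 of 14 were measured and none was at 0 in every library, had a mean of 6.03 log2 CPM for 5G2del-A, of 4.85 for WT-A and of -2.01 to 0.99 elsewhere. The 44 S phase genes were lowest in WT-C, with a mean of 4.49 log2 CPM against 5.02 to 5.40 elsewhere.

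The comparison asked whether the transcripts of these repair and checkpoint genes differed between cells with and without the deletion. No change in any of the 38 genes was detectable with these libraries, which does not show that they were unchanged. In limma-trend, 0 passed an adjusted p of 0.05, with adjusted p-values from 0.989 to 0.998, against 0.0% called over all 16760 genes. Without adjustment, 0 of the 38 lay under the limma threshold of 0.05, where 3.91% of all genes did. Ube2t came closest, with a p of 0.0665 from limma-trend (adjusted p = 0.989). In the authors' deposited table the same count was 0 of the 38, against 3.73% of all genes. Means were higher in 5G2del for 25 of 38 genes and lower for 13, where 53.3% of all genes were higher, and the median log2 fold change of the 38 was 0.13, against 0.03 over all genes. The groups did not overlap for 2 genes, Xrcc3 (higher) and Atr (lower), which is 5.26% of the 38 against 5.7% of all genes (2.92% higher and 2.78% lower). In bulk RNA, fewer cells of a type and less RNA per cell cannot be told apart.

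The precision of the fold change differed among the genes. For 21 of the 38 (55.3%) the 95% interval of the fold change, from limma-trend, lay within 2-fold either way, where 47.4% of all genes had so narrow an interval. Most of the 38 had a mean over 2 log2 CPM, and of all genes at that level 7875 of 10358 had so narrow an interval. The 38 were thus not measured more precisely than genes of like level. The 21 included all 6 checkpoint genes and all of the break sensing and resection genes but Blm. The widest intervals were those of Eme1 (-0.52 to 2.26 on the log2 scale), Rad51c (-0.57 to 2.13) and Mus81 (-0.92 to 1.78), which are also among the least abundant transcripts.

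**Figure D1:**
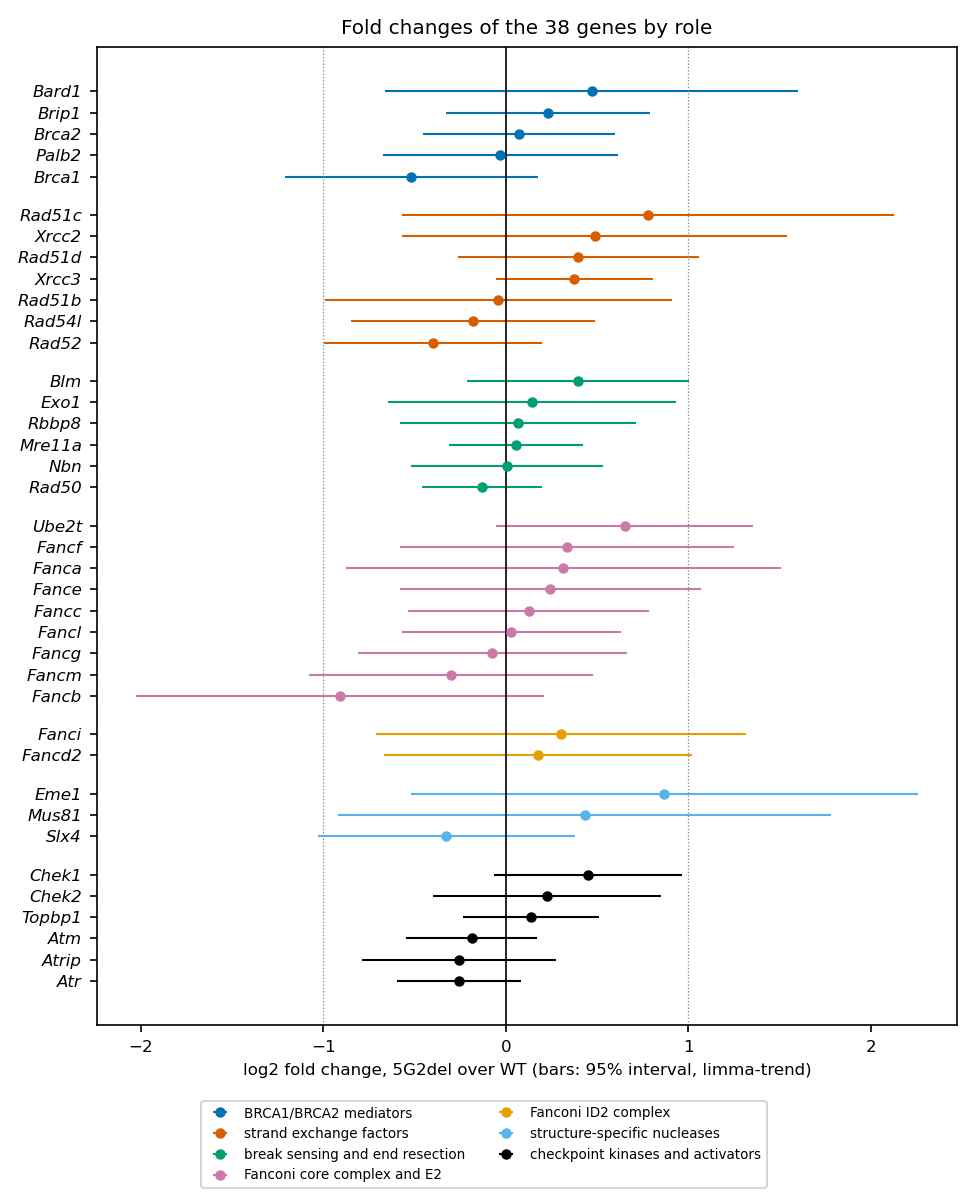
Log2 fold change of 5G2del over WT for each of the 38 genes, grouped by role; points are limma-trend estimates, bars their 95% intervals, and dotted lines mark a 2-fold change. Every interval includes 0, and those of Eme1, Rad51c and Mus81 are the widest.

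Levels were compared between genes as CPM per kb of exon, using the joined exons of all GENCODE transcripts, which understates genes with long retained or alternative exons. Rad50, the ATPase that holds broken ends together, was the most abundant at 23.3 CPM per kb (19.5 to 26.4 over the 7 libraries), above every other member in every library. It was followed by Topbp1, the activator of ATR, at 10.3 and by Mre11a, the nuclease partner of RAD50, at 8.54 CPM per kb. The lowest were Fanca at 0.479, Rad51c at 0.504 and Rad51b at 0.815 CPM per kb. Fanca and Rad51c ranged over 0.257 to 0.875 and 0.190 to 0.971 CPM per kb and did not differ beyond that spread, nor did most neighbours in the order after Rad50. The 2 genes of the pair that receives ubiquitin, Fanci and Fancd2, lay low, at 1.40 and 0.863 CPM per kb.

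**Figure D2:**
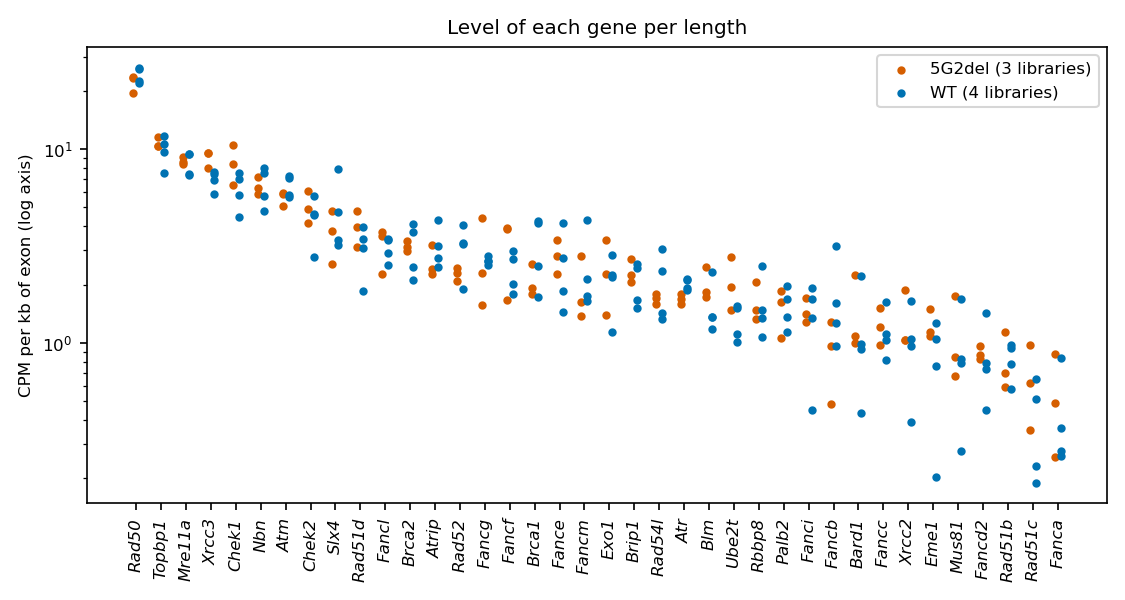
Level of each gene in CPM per kb of exon on a log axis, one point per library, ordered by the mean over 7 libraries. Rad50 stands above the rest, and WT-B gives the low WT points of Eme1, Fanci, Bard1 and Xrcc2.

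Promoter sequence from RefSeq (build GRCm38.p6, from 250 bases before to 50 after the start) was at hand for 31 of the 38 genes. E2F proteins switch on S phase genes, so the windows were searched on both strands for an E2F site in 4 spellings, TTTCCCGC, TTTCGCGC, TTTGCCGC and TTTGGCGC. It was found in 6 of the 31 genes, or 19.4%, against 4.62% of the 10793 measured genes with a promoter entry and 2.26% of all 32851 windows. The 6 were Bard1, Brca2, Chek2, Fancg, Rad51c and Topbp1. Of these 6 genes 5 had a higher mean in 5G2del, and their median log2 fold change was 0.18. Of the 25 genes without a match 14 were higher, with a median of 0.05. No test of that split was made. The CCAAT box (CCAAT), bound by NF-Y, was in 61.3% of the 31 genes and 42.9% of measured genes. Its split ran the other way: 10 of the 19 genes with it were higher (median 0.05), as were 9 of the 12 without it (median 0.22). The CHR element (TTTGAA) of G2 and M phase promoters was in 9.68% of the 31 and 14.8% of measured genes. A match is a description of the letters and not a site shown to be bound. The matches that lie before the gene in both RefSeq and GENCODE are shown on the strand of the gene with 20 bases on either side and the E2F letters in capitals, to let the context be compared; the capitals of Brca2, Chek2 and Topbp1 are the reverse complement of the spelling searched.
Bard1 (chr1:71103154-71103201, minus strand): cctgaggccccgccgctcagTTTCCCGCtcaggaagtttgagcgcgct
Brca2 (chr5:150522433-150522480, plus strand): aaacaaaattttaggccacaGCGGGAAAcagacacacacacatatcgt
Chek2 (chr5:110839811-110839858, plus strand): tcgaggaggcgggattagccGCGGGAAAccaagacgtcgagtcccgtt
Topbp1 (chr9:103305178-103305225, plus strand): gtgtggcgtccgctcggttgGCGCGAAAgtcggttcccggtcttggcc
Bard1, Brca2 and Chek2 share the spelling TTTCCCGC, whereas Topbp1 has TTTCGCGC. E2f1 itself, the founding member of the factor family, was at 4.03, 4.53 and 4.04 log2 CPM in 5G2del and at 3.34, 4.11, 2.00 and 3.49 in WT (libraries in the order of their letters), a log2 fold change of 0.97 ± 0.42 (SE; limma unadjusted p = 0.0423, adjusted p = 0.989). The groups overlapped, and without WT-C the value was 0.55.

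The 5 mediators around BRCA1 and BRCA2 split 3 higher and 2 lower, with a median log2 fold change of 0.07. Brca1, the ubiquitin ligase that promotes resection and recruits PALB2 (chromosome 11, 101488764 to 101551955 in mm10), measured 3.92, 4.45 and 4.03 log2 CPM in the 5G2del libraries in the order A to C and 5.14, 5.18, 3.88 and 4.40 in the WT libraries in the order A to D, the order kept throughout. WT-A and WT-B stood above every 5G2del library, WT-C was the lowest of all 7, and the groups overlapped. The means were 4.13 ± 0.28 (SD, n = 3) and 4.65 ± 0.62 (SD, n = 4), which is a log2 fold change of -0.52 ± 0.32 (SE). This was the largest lower mean among the 38 genes with a mean over 2 log2 CPM, and without WT-C it was -0.77 (limma unadjusted p = 0.0169, adjusted p = 0.995). Here and below, a p given with 1 library left out is the smallest of the 7 such fits for that gene. Bard1 encodes the partner of BRCA1 in that ligase. It measured 3.67, 2.49 and 2.61 log2 CPM in 5G2del and 3.65, 1.29, 2.40 and 2.48 in WT, a log2 fold change of 0.47 ± 0.51 (SE). It thus lay on the other side of 0 from Brca1; whether the 2 genes differed in their change was not tested. Without WT-B, which was the lowest for Bard1 and the highest for Brca1, the values were 0.08 and -0.34. Bard1 was at 0.87 without WT-A.

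Brca2, which acts with PALB2 on resected ends, lies on chromosome 5 (150522630 to 150570329), 14.0 Mb beyond the end of Cux1. It measured 5.42, 5.34 and 5.52 log2 CPM in 5G2del and 5.81, 5.67, 5.08 and 4.85 in WT. The 5G2del libraries all lay inside the WT range, with means of 5.42 ± 0.09 (SD, n = 3) and 5.35 ± 0.46 (SD, n = 4) and a log2 fold change of 0.07 ± 0.24 (SE). Palb2, the bridge between BRCA1 and BRCA2, was at -0.03 ± 0.29 (SE) on the log2 fold change scale, and Brip1, the helicase also called FANCJ, at 0.23 ± 0.25.

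Among the strand exchange factors, 4 of 7 had higher means, with a median log2 fold change of 0.38 (0.09 without WT-B). Xrcc3, whose product acts with RAD51C (chromosome 12, 111803192 to 111813873), measured 4.46, 4.72 and 4.72 log2 CPM in 5G2del and 4.40, 4.26, 4.02 and 4.36 in WT. Every 5G2del library was above every WT library, with 5G2del-A and WT-A the closest. The means were 4.63 ± 0.15 (SD, n = 3) and 4.26 ± 0.17 (SD, n = 4), which is a log2 fold change of 0.38 ± 0.19 (SE; limma unadjusted p = 0.0790), and it ran from 0.30 to 0.46 with 1 library left out. Rad51d, a subunit of the complex that also holds RAD51B, RAD51C and XRCC2, measured 3.53, 3.89 and 4.16 log2 CPM in 5G2del and 3.51, 2.79, 3.88 and 3.67 in WT, with a log2 fold change of 0.40 ± 0.30 (SE). The groups overlapped, since WT-C and WT-D lay above 5G2del-A, and without WT-B the value was 0.17.

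Xrcc2, the partner of RAD51D, is also on chromosome 5 but 111 Mb before Cux1. It measured 2.43, 3.28 and 2.43 log2 CPM in 5G2del and 3.11, 1.03, 2.33 and 2.44 in WT, a log2 fold change of 0.49 ± 0.48 (SE) that came to 0.09 without WT-B and 0.78 without WT-A. Rad51c, whose product is shared by the complexes of XRCC2 and XRCC3 and itself a Fanconi gene, measured 0.64, 1.44 and 2.09 log2 CPM in 5G2del and 1.51, -0.27, 0.03 and 1.17 in WT. Its log2 fold change of 0.78 ± 0.61 (SE) was smaller than the range of values within either group. WT-B was lowest for Xrcc2, Rad51c and Rad51d alike.

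The other 3 genes of this role had lower means. Rad52, which anneals single strands, measured 3.72, 3.59 and 3.81 log2 CPM in 5G2del and 3.44, 4.23, 4.21 and 4.54 in WT. Of the 4 WT libraries 3 were above all 5G2del libraries and WT-A was below them, for a log2 fold change of -0.40 ± 0.27 (SE). Without WT-A it was -0.62 ± 0.23 (SE; limma unadjusted p = 0.0213, adjusted p = 0.975), and without WT-D it was -0.25. Rad54l, a motor protein that moves along DNA during strand invasion, was at -0.18 ± 0.30 (SE) and Rad51b at -0.04 ± 0.43.

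The genes that sense and resect breaks had log2 fold changes from -0.13 for Rad50 to 0.40 for Blm and a median of 0.06. Mre11a, the nuclease of the MRN complex (chromosome 9, 14784654 to 14837123), measured 5.67, 5.63 and 5.76 log2 CPM in 5G2del and 5.45, 5.81, 5.46 and 5.81 in WT. All 3 5G2del libraries lay between the lower and the upper WT pair. Its log2 fold change was 0.05 ± 0.17 (SE), with a 95% interval of -0.31 to 0.42. The other subunits of that complex, Rad50 and Nbn, were at -0.13 ± 0.15 and 0.01 ± 0.24. Rbbp8 (CtIP), which starts resection, was at 0.07 ± 0.29 and Exo1, which extends it, at 0.14 ± 0.36. Blm, the helicase mutated in Bloom syndrome, was at 0.40 ± 0.28 (SE) and came to 0.61 without WT-A (limma unadjusted p = 0.0359, adjusted p = 0.975) and to 0.24 without 5G2del-A.

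Of the 9 genes of the Fanconi core complex and its E2 enzyme, 6 had higher means and 3 lower, with a median log2 fold change of 0.13. Ube2t, the E2 enzyme that delivers ubiquitin to FANCD2 and FANCI (chromosome 1, 134962565 to 134974162), measured 2.84, 3.24 and 3.75 log2 CPM in 5G2del and 2.28, 2.87, 2.91 and 2.43 in WT. 5G2del-B and 5G2del-C were above every WT library, while 5G2del-A lay below WT-B and WT-C. The means were 3.27 ± 0.46 (SD, n = 3) and 2.62 ± 0.31 (SD, n = 4), which is a log2 fold change of 0.65 ± 0.32 (SE) with a 95% interval of -0.05 to 1.36. This was the largest higher mean among the 38 genes with a mean over 2 log2 CPM. It was 0.87 without 5G2del-A (limma unadjusted p = 0.0332, adjusted p = 0.986) and 0.41 without 5G2del-C.

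Fanca, the subunit most often mutated in Fanconi anaemia, measured 2.94, 2.09 and 1.17 log2 CPM in 5G2del and 2.87, 1.67, 1.19 and 1.28 in WT. It was high in 1 library of each group, 5G2del-A and WT-A, and its log2 fold change of 0.32 ± 0.54 (SE) turned to -0.12 without 5G2del-A. Fancm, the helicase that anchors the core complex on DNA, measured 4.87, 4.09 and 3.85 log2 CPM in 5G2del and 4.48, 5.50, 4.19 and 4.10 in WT. Its log2 fold change of -0.30 ± 0.35 (SE) was 0.01 without WT-B, the highest of the 7 libraries. Fancb, the X-linked subunit, had the lowest value of the 38, -0.91 ± 0.51 (SE; limma unadjusted p = 0.102) at a mean under 2 log2 CPM. It was at 0.52 in 5G2del-A and 3.23 in WT-B, and the other 5 libraries lay between 1.52 and 2.26. The remaining subunits lay between -0.07 for Fancg and 0.34 for Fancf, and the catalytic subunit Fancl was at 0.03 ± 0.27 (SE).

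The pair that receives the ubiquitin was similar in pattern. Fancd2 (chromosome 6, 113531682 to 113597017) measured 2.70, 2.79 and 2.93 log2 CPM in 5G2del and 3.50, 1.84, 2.53 and 2.64 in WT, a log2 fold change of 0.18 ± 0.38 (SE). Fanci measured 3.02, 2.89 and 3.30 log2 CPM in 5G2del and 3.46, 1.38, 3.28 and 2.96 in WT, a log2 fold change of 0.30 ± 0.46 (SE). For both genes WT-A was the highest and WT-B the lowest of the 7 libraries, and both values turned below 0 without WT-B (-0.09 and -0.16).

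Of the nucleases, Slx4, the scaffold that assembles them (chromosome 16, 3979105 to 4003770), measured 4.85, 5.20 and 4.30 log2 CPM in 5G2del and 5.18, 5.92, 4.62 and 4.71 in WT. The groups overlapped, with WT-B the highest, and the log2 fold change was -0.33 ± 0.32 (SE; -0.05 without WT-B). The partners Mus81 and Eme1, which together cut branched DNA, were at 0.43 ± 0.61 and 0.87 ± 0.63 (SE). Eme1 was at 0.29 without WT-B, where it measured -0.84 log2 CPM against 1.06 to 2.04 elsewhere.

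Of the 6 checkpoint genes 3 had higher and 3 lower means, with a median log2 fold change of -0.02. Atr, the kinase that answers stalled forks (chromosome 9, 95857597 to 95951781), measured 5.23, 5.31 and 5.39 log2 CPM in 5G2del and 5.50, 5.65, 5.65 and 5.46 in WT. Every 5G2del library was below every WT library, with 5G2del-C and WT-D the closest. The means were 5.31 ± 0.08 (SD, n = 3) and 5.57 ± 0.10 (SD, n = 4), which is a log2 fold change of -0.26 ± 0.16 (SE; limma unadjusted p = 0.128) with a 95% interval of -0.60 to 0.09. It ran from -0.30 to -0.21 with 1 library left out. Atrip, which brings ATR to single-stranded DNA, was at -0.25 ± 0.24 (SE). Its exons share 16.0% of their bases with Trex1, an exonuclease gene on the same strand, so reads of that stretch are divided by estimation.

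Chek1, the kinase activated by ATR, measured 5.27, 5.60 and 4.91 log2 CPM in 5G2del and 5.02, 4.37, 4.74 and 5.12 in WT. 5G2del-A and 5G2del-B were above every WT library and 5G2del-C was not. The means were 5.26 ± 0.35 (SD, n = 3) and 4.81 ± 0.34 (SD, n = 4), which is a log2 fold change of 0.45 ± 0.24 (SE; limma unadjusted p = 0.0810). It thus lay on the other side of 0 from Atr, and the difference between the 2 genes was not tested. Topbp1, which activates ATR, was at 0.14 ± 0.17 (SE). Without 5G2del-C, Chek1 was at 0.63 (limma unadjusted p = 0.0353, adjusted p = 1.000), and without 5G2del-B at 0.28.

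On the ATM branch, Atm (chromosome 9, 53439149 to 53536740) measured 5.95, 5.93 and 5.72 log2 CPM in 5G2del and 6.24, 6.19, 5.87 and 5.91 in WT. WT-A and WT-B were above all 5G2del libraries while WT-C and WT-D were not, for a log2 fold change of -0.19 ± 0.16 (SE). Chek2, the kinase activated by ATM, lies on chromosome 5, 25.4 Mb before Cux1. It measured 3.88, 4.20 and 3.64 log2 CPM in 5G2del and 3.77, 3.79, 4.11 and 3.05 in WT, a log2 fold change of 0.23 ± 0.28 (SE; 0.02 without WT-D).

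**Figure D3:**
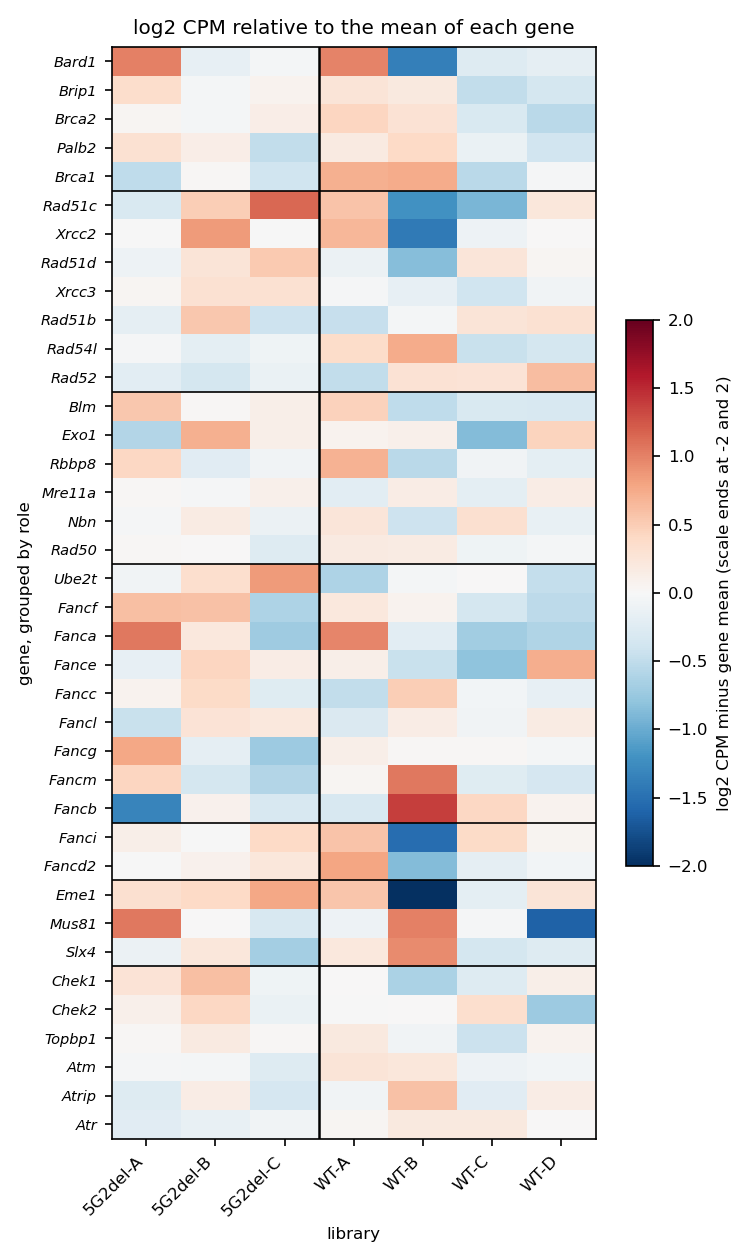
log2 CPM of each gene in each library minus the mean of that gene over 7 libraries; rows are grouped by role and the vertical line separates 5G2del from WT. Strong colours sit in 1 library for some rows (WT-B for Fanci) and in several for others (Bard1 and Fanca are high in 5G2del-A and WT-A), and Xrcc3 and Atr are the rows without overlap across the line.

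The spread between libraries of 1 genotype was wide for many of the 38 genes. WT-B was the lowest library for 11 of the 38 and the highest for 8, or 28.9% and 21.1%, where over all genes it was lowest for 26.2% and highest for 22.0%. The mean log2 CPM of the 38 was 3.78, 3.86 and 3.65 in 5G2del and 3.88, 3.62, 3.52 and 3.59 in WT. WT-A was thus the highest of the 7 and WT-C, the library lowest in S phase genes, the lowest. The part of S phase transcripts in the 38 genes was not tested.

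For 6 of the 38 genes 5G2del-A and WT-A were the 2 highest libraries, which held for 6.55% of all genes. The 6, singled out after their values were seen, were Bard1, Brip1, Rbbp8, Blm, Fanca and Fancg. Bard1 measured 3.67 and 3.65 log2 CPM there and between 1.29 and 2.61 in the other 5, and Blm at 4.43 and 4.34 against 3.37 to 4.00. Rbbp8 was at 4.69 and 4.97 against 3.75 to 4.21. The same 2 libraries were the highest for 21 of the 35 G2/M phase genes and for 8 of the 10 measured neutrophil and monocyte markers. The summed level of those markers was 1426 CPM for 5G2del-A and 416 for WT-A. It was 33.4 and 67.3 CPM for the other 5G2del libraries and 29.0 to 53.5 for the other WT libraries. The part of either in the 6 genes was not tested. With both libraries left out, a setting chosen after this was seen, 24 of 38 genes had higher means and the median log2 fold change was 0.20, and 0 passed the adjusted threshold.

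**Figure D4:**
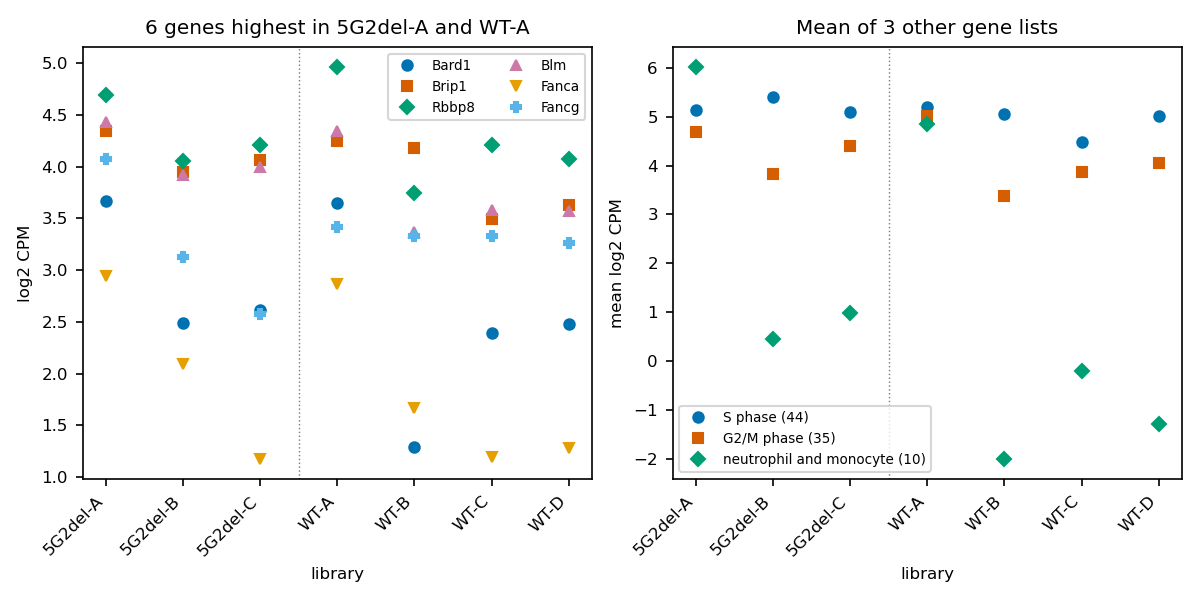
Left, log2 CPM of the 6 genes highest in 5G2del-A and WT-A, by library; right, mean log2 CPM of the S phase, G2/M phase and neutrophil and monocyte lists in the same libraries. The G2/M mean is 4.69 for 5G2del-A, 5.01 for WT-A and 3.37 to 4.40 elsewhere, and the S phase mean does not follow it.

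The other genes of these pathways gave 0 calls as well. Over all genes, 53.3% had higher means, 3.91% had an unadjusted limma p under 0.05 and 5.7% had groups that did not overlap. Among 26 other recombination genes, 18 had higher means (median log2 fold change 0.11, and 0.06 to 0.18 with 1 library left out) and 1 had an unadjusted limma p under 0.05. Gen1, a resolvase of crossed strands, measured 2.38, 1.82 and 1.99 in 5G2del and 3.59, 2.89, 2.66 and 2.70 in WT, a log2 fold change of -0.90 ± 0.34 (SE; limma unadjusted p = 0.0233, adjusted p = 0.989) without overlap. Of the nuclease role above, Eme1 (0.87) and Mus81 (0.43) lay on the other side of 0 from Gen1 and Slx4 (-0.33) on the same side. These differences were not tested. Rad54b, a relative of Rad54l, was at 0.46 ± 0.28 (SE; limma unadjusted p = 0.126). Its groups did not overlap but nearly touched, with 5G2del-A at 2.991 and WT-B at 2.984 log2 CPM.

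Of 17 other Fanconi genes, 11 had higher means (median 0.16, and 0.06 without WT-C). Slx4ip, which binds the SLX4 scaffold, measured 3.26, 2.90 and 2.50 log2 CPM in 5G2del and 3.76, 3.61, 3.55 and 3.76 in WT, with a log2 fold change of -0.78 ± 0.26 (SE; limma unadjusted p = 0.0122, adjusted p = 0.989). Cenpx, a partner of FANCM in DNA binding, measured 4.40, 4.81 and 4.87 in 5G2del and 3.41, 4.28, 4.14 and 4.33 in WT, with 0.66 ± 0.26 (SE; limma unadjusted p = 0.0286, adjusted p = 0.989). The groups did not overlap for either gene. Of 24 other checkpoint genes, 17 had higher means (median 0.09, and 0.04 without WT-C). Rhno1, which works with the 9-1-1 clamp and TOPBP1 to activate ATR, measured 4.34, 4.17 and 4.14 in 5G2del and 3.71, 2.36, 3.59 and 3.60 in WT, with 0.90 ± 0.33 (SE; limma unadjusted p = 0.0191, adjusted p = 0.989), no overlap, and 0.58 without WT-B. Clspn, the adaptor that lets ATR reach CHK1, was at 0.80 ± 0.45 (SE) with overlap, and at 0.44 without WT-B.

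Cell cycle genes are set beside these because recombination genes follow the cycle. Of 44 S phase genes 41 had higher means, with a median log2 fold change of 0.24. Of 35 G2/M genes 27 did, with a median of 0.21, where 53.3% of all genes were higher. WT-C was the lowest library for 34 of the 44 S phase genes and 5G2del-B the highest for 22. The S phase median was 0.12 without WT-C and 0.12 without 5G2del-B, and the G2/M median ran from -0.05 without WT-B to 0.50 without WT-A. None passed the adjusted threshold, and 3 and 1 had an unadjusted limma p under 0.05, against 3.91% of all genes. The S phase list averaged 5.14, 5.40 and 5.09 log2 CPM in 5G2del and 5.20, 5.06, 4.49 and 5.02 in WT, so the groups overlapped through WT-A. Whether the 38 genes differ from the S phase genes in their change was not tested.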

How the data were processed

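Per the labels, libraries followed amplification by the Ovation V2 system and were read from both ends. The submitters' processing notes name the tools STAR (2.7.9a), RSEM (1.3.0) and limma (3.50.3), and the builds mm10 and GRCh38 without a role. The authors deposited log2 CPM for 7 libraries, with an offset of 0.5 count, beside their own log2 fold changes, moderated t and log-odds scores and p-values with adjusted p- and q-values. How low genes were filtered, the annotation and the scaling were not stated. Reads shared between similar genes are divided by estimation in RSEM, the strand setting is unknown, and 13 of the 38 genes share exon bases with another gene of the table, so their values carry that uncertainty.

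Groups were compared by limma-trend (limma 3.58.1, R 4.3.3), whose prior variance follows the mean level, over the deposited log2 CPM of all 16760 genes, 4 WT against 3 5G2del libraries, two-sided, with Benjamini-Hochberg adjustment over all genes and a threshold of 0.05. It was also run on simulated data with known changes, drawn with independent noise for each gene and no shift shared within a library. That run does not show how large a change these libraries could detect. No test was run over the members as a list. Depth and floors came from expected counts stepped back from log2 CPM; floors cover counting error only. Gene positions are from GENCODE M21 (mm10), whose identifiers matched 16755 of the 16760 genes.

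A gene given with every library had a limma p under 0.05, groups that did not overlap or another ground. The other grounds were the 5 highest or lowest fold changes at a mean over 2 log2 CPM, or being 1 of 11 set by role. Fanci met none of these and was given beside Fancd2. Of each other list, up to 3 in each direction with the smallest p (under 0.25) could be named. One gene of the recombination list is not reported here. The members, lists and tests were chosen with earlier results of these data known. Alternatives were each library left out, no trend, genes with a mean over 0 log2 CPM, quantile normalization, a median shift, log2 of CPM plus 1 and the authors' deposited statistics.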

Additional observations from a re-analysis of the deposited data

How the results depend on the processing

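No paired analysis was possible because the columns of the deposited table carry no replicate numbers. The count of 0 among the 38 genes at adjusted p 0.05 held in all 7 settings that left out 1 library and in the 7 others. Over all genes, 0 were called except for 1 without the trend and 0 to 1 with a library left out. In the main fit, 656 of all genes (3.91%) had an unadjusted limma p under 0.05. Members under that p numbered 0 to 2 with a library left out and 1 without both 5G2del-A and WT-A. The share of all genes under it in those settings is not given, so these counts cannot be set against a general rate. With a library left out, members with higher means numbered 21 to 27, and the median of the 38 ran from 0.05 to 0.22. Role medians that moved by more than the spread between WT libraries were those of the strand exchange factors (0.087 to 0.46 with a library left out), the nucleases (-0.045 to 0.71, and 0.061 without both 5G2del-A and WT-A) and the checkpoint genes (-0.11 to 0.049). Others moved by less than that spread but still turned in sign with a library left out. They were the mediators (-0.098 to 0.23), the Fanconi core complex and E2 (-0.021 to 0.27) and the FANCD2-FANCI pair (-0.12 to 0.50).

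Of the 38 genes, 22 kept their direction in every setting. With 1 library left out, 16 turned: Brca2 (-0.10 to 0.23), Palb2 (-0.19 to 0.21), Rad51b (-0.32 to 0.16), Rad54l (-0.35 to 0.042), Mre11a (-0.0059 to 0.11), Nbn (-0.13 to 0.11), Rbbp8 (-0.12 to 0.31), Exo1 (-0.17 to 0.48), Fanca (-0.12 to 0.76), Fancc (-0.032 to 0.31), Fancd2 (-0.086 to 0.47), Fancg (-0.48 to 0.27), Fanci (-0.16 to 0.53), Fancl (-0.10 to 0.26), Fancm (-0.60 to 0.010) and Mus81 (-0.045 to 0.83). Nbn also turned with quantile normalization (-0.023) and a median shift (-0.015), Fancl with quantile normalization (-0.0077) and Fancc without both 5G2del-A and WT-A (-0.018). The cause was not tested. The lowest value of any member was 22.7 expected counts, so no member was at the limit that a count of 0 allows; the precision rests on 3 and 4 libraries.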

Other observations

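Other groups tied to DNA damage were read from the same fit, each with 0 genes past the adjusted threshold and 0 with an unadjusted limma p under 0.05. Over all genes, 53.3% had higher means and 3.91% had such an unadjusted p. Of 28 genes induced by p53, the transcription factor that answers DNA damage, 18 had higher means, and the median log2 fold change of 0.10 turned to -0.12 without WT-B. Mdm2, the ubiquitin ligase that degrades p53 and is itself its target, measured 5.88, 5.80 and 5.77 log2 CPM in 5G2del and 5.89, 6.07, 6.17 and 6.09 in WT, a log2 fold change of -0.24 ± 0.15 (SE) without overlap of the groups. Zmat3, an RNA-binding protein induced by p53, measured 3.24, 3.52 and 3.47 log2 CPM in 5G2del and 3.19, 2.59, 2.97 and 2.80 in WT, 0.52 ± 0.27 (SE), also without overlap. Sesn1, a stress-induced inhibitor of growth signalling, was at -0.27 ± 0.15 (SE) with overlap.

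Of 16 end joining genes, which repair breaks without a template, 9 had higher means. Their median of 0.08 turned to -0.07 without 5G2del-B and to -0.06 without WT-B. Polq, the polymerase of microhomology-mediated joining, was at 0.57 ± 0.38 (SE) and Shld2, a shieldin subunit that protects ends from resection, at -0.57 ± 0.39 (SE), both with overlap of the groups. Without WT-B they were at 0.32 and -0.27. Of 7 genes that clear aldehydes, a source of the crosslinks that the Fanconi pathway repairs, 6 had higher means. Their median of 0.05 turned to -0.09 without 5G2del-C and was 0.18 without WT-A. Aldh9a1 was at 0.25 ± 0.18 (SE) and Aldh1a1 at 0.47 ± 0.37 (SE), with overlap. Aldh9a1 was at 0.14 without 5G2del-C, and Aldh1a1 at 0.16 without WT-C.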
